A study of Mus musculus with 2 samples.

Results

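The 39 genes described here belong to the interferon response and to class I antigen presentation, and they are 39 of the 32285 genes counted in nuclei of the mouse subventricular zone (SVZ). They were found by gene symbol, with no measured value entering the rule, although the list was chosen with earlier results of these data known. By role they are 4 interferon receptor chains, 7 Stat and Irf transcription factors, 2 cytoplasmic RNA sensors, 6 interferon-inducible GTPases, 12 other effectors and 8 genes of class I antigen presentation.

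Interferons are secreted alarm signals. Type I interferons act through the receptor chains Ifnar1 and Ifnar2, interferon gamma acts through Ifngr1 and Ifngr2, and both use Jak kinases and Stat factors to switch on a shared set of antiviral and antigen presentation genes. In the brain these genes are kept low at rest, and microglia, border macrophages of the meninges and vessels, and vascular and meningeal stromal cells are known as their main responders.

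The SVZ is a germinal zone beside the lateral ventricle. Mice entered the MIP group, a modeled intestinal perforation, or the healthy Control group on postnatal day 5, and the SVZ was taken 48 h later, on postnatal day 7, and snap frozen. Each group was 1 library of isolated nuclei, the strain is not given in the sources used here, and neither is the number of animals behind a library. The comparison asks how SVZ cells differ after an early intestinal injury.

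Counts are of unique molecular identifiers (UMIs), each standing for 1 captured RNA molecule. There were 100823376 UMIs over 12366 barcodes in the MIP library and 146730970 UMIs over 16964 barcodes in the Control library. After filters, 10940 MIP nuclei with a median of 6030.5 UMIs and 14579 Control nuclei with a median of 5647 UMIs were kept, and 115 barcode sequences occurred in both libraries. Xist, the RNA of the inactive X chromosome, had 118 UMIs in kept MIP nuclei and 200825 in kept Control nuclei, so sex and group cannot be told apart. Classes of nuclei were named by resemblance to marker genes. Astroglia-like nuclei, cycling progenitor-like nuclei and neuroblast-like nuclei were all found. The cycling class also carried markers of oligodendrocyte precursors. Beside these were 708 MIP and 3487 Control nuclei of low depth and 2438 MIP and 2508 Control nuclei left unnamed. Spiny projection neuron-like nuclei of the adjoining striatum numbered 2910 in the MIP and 3049 in the Control library. Because each group was 1 library, differences had no replicate check and no test was made. Levels are in CPM, which scale the UMIs of a gene to a common total of UMIs in every class, ratios are log2 of MIP over Control, and each interval in parentheses is the exact 95% interval of a ratio of 2 counts, which covers counting error only. A member was counted as measured in a class with at least 20 UMIs over both libraries, and it was called higher or lower from 1.5-fold upward.

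Promoters were available for 34 of the 39 members, from RefSeq on GRCm38.p6, each from 250 bases before to 50 bases after a start. Iigp1, Usp18, Parp14, Tap2 and Nlrc5 had no entry. The interferon-stimulated response element (ISRE), bound by interferon-activated Stat2 with Irf9 and by other Irf factors, was searched on both strands as GAAA, any 2 bases and GAAA again. It occurred in 16 of the 34 members, or 47.1%, where a gene counts with a match in any of its promoters. Counted the same way it occurred in 3.99% of all 27025 genes, and by promoter in 3.44% of all 32851 promoters of that length. The gamma-activated site (GAS), bound by Stat dimers and searched as TTCNNNGAA on both strands, occurred in 11 of the 34 members, or 32.4%. It occurred in 9.55% of all genes and in 8.30% of all promoters. The 2 motifs overlapped in some promoters, Bst2 among them. The 150 bases before the start are printed here, 5′ to 3′ on the gene's strand, for 6 members. The 6 were picked among members with an ISRE match, and each such match is in capitals. Other members that the results name, Rnf213, Oasl2, Ifngr1, Ifnar2, Irf9 and Xaf1 among them, had no ISRE match. Whether members that differed between the libraries held the motif more often was not tested. Irgm1, Gbp7 and B2m are shown for their values in microglia-like nuclei, and Ifit1, Ifit3 and Bst2 for theirs in fibroblast-like nuclei.
Irgm1, chr11:48871421-48871570, minus strand: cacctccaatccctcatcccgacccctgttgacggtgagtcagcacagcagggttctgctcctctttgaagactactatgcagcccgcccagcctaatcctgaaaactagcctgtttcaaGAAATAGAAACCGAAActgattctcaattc
Gbp7, chr3:142530186-142530335, plus strand: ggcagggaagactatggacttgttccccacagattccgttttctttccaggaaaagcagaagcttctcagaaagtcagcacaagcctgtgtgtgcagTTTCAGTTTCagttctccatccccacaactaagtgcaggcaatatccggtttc
B2m, chr2:122147537-122147686, plus strand: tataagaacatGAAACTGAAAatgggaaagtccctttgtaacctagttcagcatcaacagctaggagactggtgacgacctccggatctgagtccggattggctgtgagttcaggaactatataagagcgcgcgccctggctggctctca
Ifit1, chr19:34640739-34640888, plus strand: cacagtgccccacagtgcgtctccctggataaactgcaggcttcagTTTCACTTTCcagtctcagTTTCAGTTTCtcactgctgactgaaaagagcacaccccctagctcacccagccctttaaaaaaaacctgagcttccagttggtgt
Ifit3, chr19:34583379-34583528, plus strand: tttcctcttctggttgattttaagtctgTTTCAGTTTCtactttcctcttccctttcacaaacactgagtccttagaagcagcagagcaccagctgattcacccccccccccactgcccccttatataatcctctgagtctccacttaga
Bst2, chr8:71537473-71537622, minus strand: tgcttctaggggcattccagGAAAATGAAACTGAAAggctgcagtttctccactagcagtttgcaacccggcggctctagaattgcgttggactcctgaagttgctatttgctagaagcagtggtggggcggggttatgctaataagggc
Irgm1 and Bst2 each held 2 overlapping matches, and Ifit1 held 2 separate ones. Ifit3 held another match 156 bases before the start, outside the printed bases. The match in Gbp7 lay 53 bases before the start, and that in B2m lay 139 bases before it. A match is a run of letters, not evidence of a bound factor.

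The level of each member was set side by side across the classes. In the Control library the border macrophage-like nuclei had the highest level of 31 of the 39 members among 14 named classes, with a counting interval clear of the next class for 10 of them: Iigp1, Gbp7, Stat2, Irf2, Ifih1, Oasl2, Rnf213, Parp14, B2m and Nlrc5. Of the 31 ranks, that of Irf7 rested on 1 UMI, which stood at 10.7 CPM in this small class, that of Isg15 on 2 and that of Gbp2 on 3. How many of all genes were highest in each class was not counted, so such ranks cannot be read as particular to the members. In the MIP library the border macrophage-like nuclei were highest for 12 members, 5 of them clear of the next class: Rnf213, B2m, H2-K1, H2-D1 and Nlrc5. Microglia-like nuclei were highest for 14 members, of which only 1, Ifngr1, was clear of the next class. Some of these ranks rest on few UMIs, that of Isg15 on 1 and that of Irf7 on 4. The 12 were Stat2, Ifih1, Isg15, Bst2, Rnf213, Parp14, Ifnar2, B2m, H2-K1, H2-D1, Psmb8 and Nlrc5. The 14 were Irgm1, Gbp3, Gbp7, Irf1, Irf2, Irf7, Irf8, Irf9, Rsad2, Xaf1, Ifngr1, Ifngr2, Tap1 and Psmb9. The other 13 were highest in MIP nuclei resembling fibroblasts (Iigp1, Ddx58, Ifit2 and Ifit3), pericytes (Irf3, Oasl2, Usp18 and Tap2), endothelial cells (Ifit1, Ifitm3 and Ifnar1), differentiating oligodendrocytes (Igtp) or ependymal cells (Gbp2), with no interval clear of the next class. The 8 Control exceptions were Irf8 and Ifngr1 in microglia-like nuclei, Irf3 and Ifitm3 in fibroblast-like nuclei, Irf9, Ifnar1 and Psmb8 in endothelial cell-like nuclei and Tap2 in pericyte-like nuclei. No member was highest in astroglia-like, precursor-like or neuron-like nuclei of either library.

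**Figure D1:**
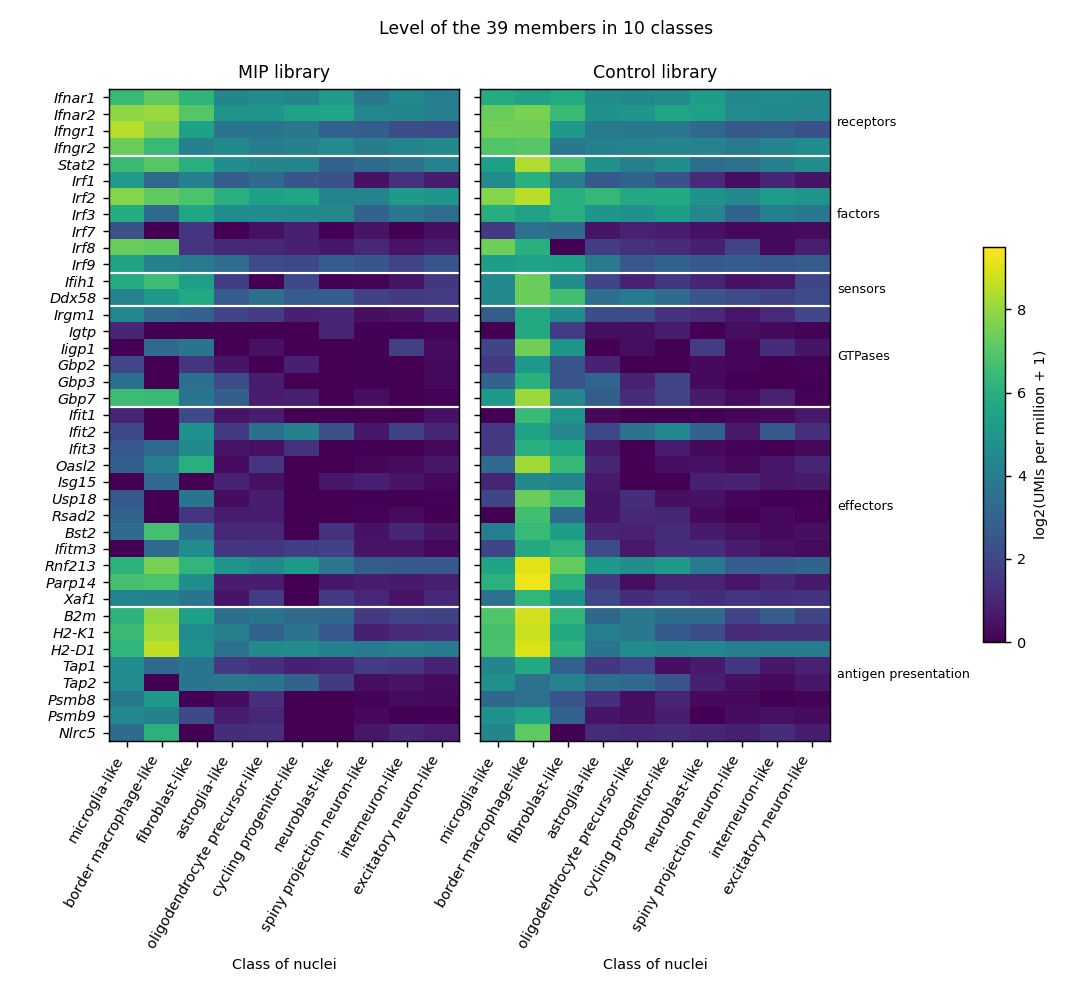
Level of each of the 39 members (rows, by role) in 10 classes of nuclei (columns), MIP library on the left and Control library on the right; colour is log2 of CPM plus 1. The bright border macrophage-like column of the Control library covers most rows, whereas in the MIP library the microglia-like column is of like brightness for many of them.

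Microglia-like nuclei, resembling the resident immune cells of the brain, numbered 353 in the MIP library and 299 in the Control library. Of 26 measured members, 11 were higher in the MIP library and 3 were lower, while 12.1% of the 10720 genes measured in this class were higher and 22% were lower. The median log2 ratio was 0.38 over the measured members and -0.11 over all genes. The other 13 members had fewer than 20 UMIs and were not called. Receptor chains, the Stat2 factor, the sensor Ifih1 and the GTPases Irgm1 and Gbp7 were on the higher side, and the class I chains B2m and H2-D1 were below a ratio of 1.

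Among the receptors, Ifngr1, the ligand-binding chain for interferon gamma, had 333 UMIs (345 CPM) in MIP and 176 UMIs (176 CPM) in Control microglia-like nuclei, a log2 ratio of 0.97 (0.71 to 1.25). Ifnar2, a chain of the type I receptor, had 227 UMIs in MIP and 156 in Control nuclei, at 0.60 (0.29 to 0.90). All 4 receptor chains had ratios above 1 with intervals that excluded it, although Ifnar1 at 0.57 and Ifngr2 at 0.44 did not reach 1.5-fold. After every nucleus was thinned to 2000 UMIs, Ifngr1 was detected in 46.4% of 276 MIP nuclei (exact binomial interval 40.4% to 52.5%) and 26.1% of 280 Control nuclei (21.0% to 31.6%). Without thinning these shares were 54.7% and 40.5%, at median depths of 2659 and 3103 UMIs. Spiny projection neuron-like nuclei, at median depths of 7947 and 10809 UMIs, showed Ifngr1 in 1.22% of thinned nuclei of each library, and in 5.02% and 5.94% of unthinned ones.

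Among the factors, Stat2, the partner of Irf9 in the type I signalling complex, had 86 UMIs (89.1 CPM) in MIP and 41 UMIs (40.9 CPM) in Control microglia-like nuclei, at 1.12 (0.57 to 1.70). Irf1, an activator induced by interferon gamma, had 35 and 23 UMIs in MIP and Control nuclei, and its interval included a ratio of 1. Irf8, a factor that microglia need for their development, had 160 and 170 UMIs, at -0.03 (-0.35 to 0.29), and Irf2, Irf3 and Irf9 also lay within 1.5-fold. Of the 6 measured factors, Stat2 and Irf1 thus passed 1.5-fold, and only the interval of Stat2 excluded a ratio of 1.

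The sensors also split. Ifih1, which detects long double-stranded RNA as MDA5, had 55 UMIs in 44 MIP nuclei and 22 UMIs in 20 Control nuclei, at 1.38 (0.64 to 2.16). Ddx58, the RNA sensor RIG-I, had 18 and 22 UMIs in MIP and Control nuclei, at -0.24 (-1.22 to 0.73).

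Of the GTPases, which act against intracellular pathogens, 2 were measured in microglia-like nuclei. Gbp7, a guanylate-binding protein, had 88 UMIs in 71 MIP nuclei (91.2 CPM) and 33 UMIs in 28 Control nuclei (32.9 CPM), at 1.47 (0.88 to 2.09). Irgm1, a regulator of the immunity-related GTPases, had 20 UMIs in 18 MIP nuclei and 6 UMIs in 6 Control nuclei, at 1.79 (0.42 to 3.40). Both differences were spread over many nuclei, with at most 4 UMIs of either gene in any 1 MIP nucleus. In thinned nuclei Gbp7 was detected in 13% of MIP and 7.14% of Control microglia-like nuclei (unthinned 20.1% and 9.36%), against 0 of 2862 MIP spiny projection neuron-like nuclei, which allows a share of up to 0.105%, and 0.0328% of Control ones (unthinned 0.241% and 0.230%). The other 4 GTPases were near 0, the highest being Gbp3 with 10 UMIs in MIP and 7 in Control nuclei.

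Of the effectors, Parp14, an ADP-ribosyltransferase, had 100 UMIs in MIP and 67 in Control microglia-like nuclei, at 0.63 (0.17 to 1.10). Rnf213, a large ubiquitin ligase, had 68 and 46 UMIs, at 0.62 (0.06 to 1.19). Xaf1, a promoter of cell death, with 18 MIP and 11 Control UMIs, and Bst2, the virus-tethering protein tetherin, with 9 MIP and 16 Control UMIs, passed 1.5-fold in opposite directions with intervals that included a ratio of 1. The classical antiviral effectors were scarcely seen: Ifit1, Ifit2, Ifit3, Isg15, Usp18, Oasl2, Ifitm3 and Rsad2 had between 0 and 9 UMIs in either library. The 7 Rsad2 UMIs of the MIP library all came from 1 nucleus.

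Antigen presentation members ran partly the other way in microglia-like nuclei. B2m, the light chain shared by all class I molecules, had 67 UMIs (69.4 CPM) in MIP and 120 UMIs (120 CPM) in Control nuclei, at -0.79 (-1.24 to -0.34). H2-D1, a class I heavy chain, had 72 and 108 UMIs in MIP and Control nuclei, at -0.53 (-0.98 to -0.09), which did not reach 1.5-fold. Thinned B2m shares were 11.6% of MIP and 21.1% of Control nuclei (unthinned 17.6% and 31.4%), and 0.349% and 0.493% in MIP and Control spiny projection neuron-like nuclei (unthinned 1.72% and 3.28%). Nlrc5, the transactivator of class I genes, had 9 MIP and 19 Control UMIs, and Psmb8, an immunoproteasome subunit, had 13 MIP and 8 Control UMIs, both with intervals that included a ratio of 1. H2-K1, the peptide transporter chains Tap1 and Tap2, and Psmb9 lay within 1.5-fold. H2-K1 and H2-D1 are closely related in sequence, so reads that fit both could make either count inaccurate.

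Markers of border macrophages also differed between the libraries in microglia-like nuclei, but not all in the same direction. The 8 markers summed to 772 UMIs (800 CPM) in MIP and 414 UMIs (413 CPM) in Control microglia-like nuclei, and Lyve1 was at 0 in both. F13a1 had 149 UMIs in 74 MIP nuclei and 3 UMIs in 3 Control nuclei, and Mrc1, which made up most of the MIP sum, had 441 UMIs in 152 MIP nuclei and 171 UMIs in 81 Control nuclei, at 1.42 (1.16 to 1.68). Ms4a7, with 13 MIP and 1 Control UMIs, and Cbr2, with 6 and 0, were few but on the higher side. Stab1 ran the other way, with 162 UMIs in MIP and 236 in Control nuclei, as did Cd163 with 0 and 1 and Pf4 with 1 and 2. T and NK cell markers summed to 2 UMIs in MIP and 8 in Control nuclei. Leaving out every nucleus with a UMI of F13a1, Cd163, Lyve1, Pf4, Ms4a7 or Cbr2, a step added after the data were seen, left 268 MIP and 292 Control nuclei. Nuclei whose only such UMIs were of Mrc1 or Stab1 stayed in, so UMIs of border macrophage markers remained. Of 24 measured members, 7 were then higher and 3 lower, beside 12% and 21.1% of all genes. Gbp7 at 1.53, Stat2 at 0.96, Ifih1 at 1.13, Ifngr1 at 1.03, Ifnar2 at 0.70 and B2m at -0.74 kept their side of 1.5-fold, and Ifnar1 reached it at 0.72 and H2-D1 at -0.66. Parp14 at 0.38, Rnf213 at 0.36, Irf1 at 0.48 and Bst2 at -0.22 fell under 1.5-fold. Irgm1, at 12 MIP and 6 Control UMIs, and Psmb8, at 10 and 8, were below the minimum. Thinning to 2000 UMIs left 21 measured members, 7 of them higher and 2 lower, beside 14.9% and 21.7% of all genes.

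**Figure D2:**
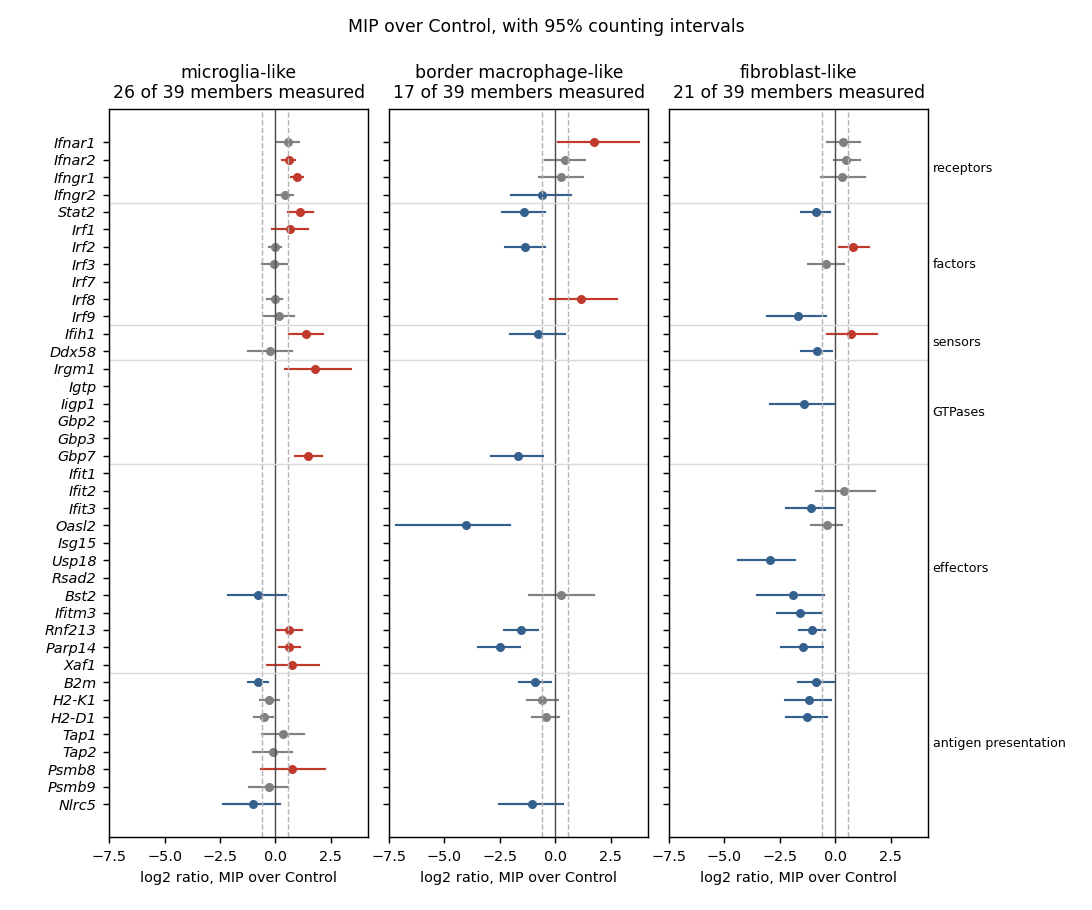
Log2 ratio of MIP over Control (points) with exact 95% counting intervals (lines) for the members with at least 20 UMIs in microglia-like, border macrophage-like and fibroblast-like nuclei, rows by role; red is at least 1.5 times higher, blue at least 1.5 times lower, grey between, and dashed lines mark 1.5-fold. Gbp7, Stat2, Rnf213 and Parp14 lie right of 0 in microglia-like nuclei and left of 0 in border macrophage-like nuclei.

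Border macrophage-like nuclei were few, 24 in the MIP library and 22 in the Control library, in 1 cluster led by Mrc1, F13a1 and Cd163. Ifi207 and Ddx60, both interferon-induced and not members, were also among the 10 leading genes of that cluster. Of 17 measured members, 2 were higher in the MIP library and 10 were lower, against 25.2% of 2615 genes higher and 24.1% lower. The median log2 ratio was -0.79 over the measured members and 0.04 over all genes. The other 22 members were under 20 UMIs.

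Effectors were furthest apart. Oasl2, an oligoadenylate synthetase-like protein, had 2 UMIs in 2 MIP nuclei and 26 UMIs in 11 Control nuclei, at -4.05 (-7.17 to -2.05). Parp14 had 13 UMIs (110 CPM) in MIP and 57 UMIs (612 CPM) in Control nuclei, at -2.48 (-3.47 to -1.59), and Rnf213 had 22 and 50 UMIs, at -1.53 (-2.33 to -0.78). Usp18, which removes Isg15 from proteins and dampens the type I receptor, had 0 UMIs in MIP nuclei and 15 UMIs in 9 Control nuclei. By the end of its exact interval nearest to a ratio of 1, Usp18 was at least 4.56-fold lower in the MIP library. Set against 3 UMIs, the limit that a count of 0 allows in a class of 1 library, the fold was 6.36, with the 15 UMIs taken as exact. Rsad2 (viperin), with 0 MIP and 9 Control UMIs, and Ifit1, an RNA-binding inhibitor of translation, with 0 MIP and 8 Control UMIs, were at least 2.51-fold and 2.17-fold lower by the exact interval, and 3.81-fold and 3.39-fold against 3 UMIs. Usp18, Rsad2 and Ifit1 were under the minimum of 20 UMIs and were not called. Their bounds cover counting error only and not the clustering of UMIs within nuclei.

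Of the GTPases, Gbp7 had 10 UMIs in MIP and 25 in Control border macrophage-like nuclei, at -1.67 (-2.89 to -0.56). Iigp1, under the minimum, had 1 UMI in MIP and 16 UMIs in 6 Control nuclei, of which 8 were in 1 nucleus. Of the factors, Stat2 had 15 and 31 UMIs in MIP and Control nuclei, at -1.39 (-2.39 to -0.46), and Irf2, largely a repressor, had 17 and 34 UMIs, at -1.35 (-2.28 to -0.47). Irf8 ran the other way, with 17 MIP and 6 Control UMIs, and its interval included a ratio of 1. The receptor chain Ifnar1 was also higher, with 17 UMIs in MIP and 4 in Control nuclei, at 1.74 (0.12 to 3.77).

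B2m had 29 UMIs in MIP and 43 in Control border macrophage-like nuclei, at -0.91 (-1.65 to -0.20), although 15 of the Control UMIs came from 1 nucleus. H2-K1, with 34 and 40 UMIs, and H2-D1, with 45 and 48 UMIs in MIP and Control nuclei, lay within 1.5-fold. Ifih1 with 11 MIP and 15 Control UMIs, Ifngr2 with 10 and 12, and Nlrc5 with 8 and 13 were lower with intervals that included a ratio of 1, and Bst2, Ifnar2 and Ifngr1 were within 1.5-fold. Microglia markers were present in this class in both libraries, at 6894 CPM in MIP and 7637 CPM in Control nuclei, and T and NK cell markers were at 0 in both. Without doublet removal these nuclei did not form a named cluster, so that alternative gave no value for this class.

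More Control than MIP border macrophage-like nuclei held several interferon-induced members at the same time. For each nucleus thinned to 2000 UMIs, the number of distinct members with a UMI was counted among 23: the GTPases, sensors and effectors listed above together with Stat2, Irf7 and Irf9, but without Irf1, Irf2, Irf3 and Irf8. In border macrophage-like nuclei the lowest, median and highest numbers were 0, 2 and 3 over 23 MIP nuclei and 0, 4 and 12 over 21 Control nuclei. At least 5 of these members were seen in 0 of 23 MIP nuclei (exact interval up to 14.8%) and in 10 of 21 Control nuclei, or 47.6% (25.7% to 70.2%). Those 10 nuclei held 84.3% of the class's 140 thinned UMIs of these members, a share that picking nuclei by the same members itself raises. Without thinning, 3 of 24 MIP nuclei and 15 of 22 Control nuclei had at least 5. Nuclei of 1 library are not replicates, and whether the 10 came from 1 animal or several is not given in the sources used here.

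**Figure D3:**
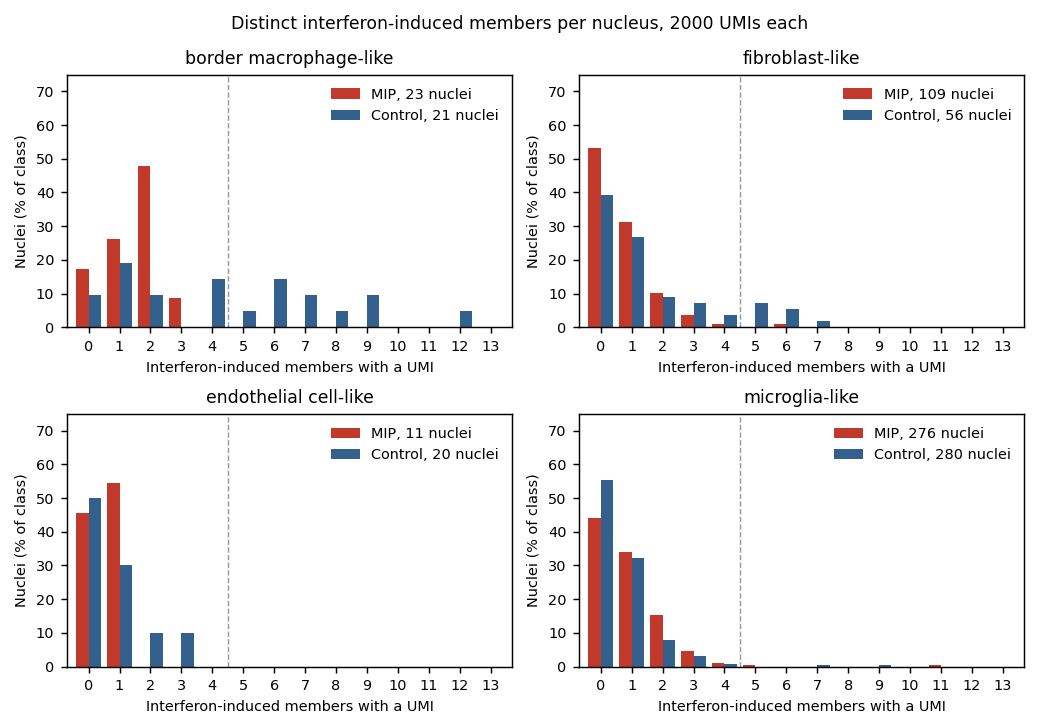
Number of distinct interferon-induced members with a UMI (horizontal axis, of 23) per nucleus thinned to 2000 UMIs, as a percentage of the nuclei of the class (vertical axis), for MIP (red, left bars) and Control (blue, right bars) in 4 classes; the dashed line marks the step to 5 members. Border macrophage-like Control nuclei reach up to 12 members and MIP ones 3, while the 2 libraries overlap closely in microglia-like nuclei.

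In microglia-like nuclei the same count had a median of 1 over 276 MIP nuclei and 0 over 280 Control nuclei, and 2 nuclei of each library had at least 5. In fibroblast-like nuclei 1 of 109 MIP nuclei (0.917%, 0.0232% to 5.01%) and 8 of 56 Control nuclei (14.3%, 6.38% to 26.2%) had at least 5. Without thinning these were 8 of 113 MIP and 18 of 60 Control nuclei. The 18 held 80.6% of the 458 Control UMIs of these members, a share raised by the same picking. UMIs of 1 nucleus are not independent, so for these classes the counting intervals of the ratios are too narrow.

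Fibroblast-like nuclei, which resemble stromal cells of the meninges and vessels, numbered 113 in the MIP library and 60 in the Control library, with median depths of 4682 and 6861.5 UMIs. Of 21 measured members, 2 were higher in the MIP library and 13 were lower, against 16.3% of 8204 genes higher and 19.6% lower. The median log2 ratio was -0.89 over the measured members and -0.03 over all genes, and 18 members were under 20 UMIs, Nlrc5 among them at 0 in both libraries. The 13 lower members were 6 effectors, 3 antigen presentation genes, 2 factors, 1 sensor and 1 GTPase.

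Usp18 was furthest apart among the effectors, with 7 UMIs (11.8 CPM) in MIP and 41 UMIs (92.3 CPM) in Control fibroblast-like nuclei, at -2.96 (-4.36 to -1.79). Those Control UMIs were spread over 15 nuclei, with at most 7 in any of them. Bst2 had 6 and 17 UMIs in MIP and Control nuclei, at -1.92 (-3.55 to -0.50), and Ifitm3, which blocks virus entry at membranes, had 14 and 32 UMIs, at -1.61 (-2.63 to -0.66). Parp14 had 15 and 31 UMIs, at -1.46 (-2.46 to -0.53), and Rnf213 had 44 and 68 UMIs, at -1.04 (-1.62 to -0.47). Ifit3, whose product binds Ifit1, had 13 MIP and 21 Control UMIs, at -1.10 (-2.22 to -0.04). Reads that fit both Ifit3 and its near-identical copy Ifit3b could make this count inaccurate. Ifit1, under the minimum, had 2 MIP and 13 Control UMIs.

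Upstream of these effectors, Stat2 had 36 UMIs in MIP and 50 in Control fibroblast-like nuclei, at -0.89 (-1.55 to -0.24). Irf9, its partner, had 8 and 19 UMIs, at -1.66 (-3.06 to -0.40). Ddx58 had 32 and 43 UMIs, at -0.84 (-1.55 to -0.14), and Iigp1 had 7 and 14 UMIs, at -1.41 (-2.96 to -0.0078). Irf2 was higher in the MIP library with 66 UMIs against 28, at 0.82 (0.17 to 1.52), and so was Ifih1 with 24 against 11, whose interval included a ratio of 1. The receptor chains Ifnar1, Ifnar2 and Ifngr1 lay within 1.5-fold, between 0.32 and 0.51.

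Single nuclei held much of the class I signal of the Control library in this class. B2m had 24 UMIs in MIP and 33 in Control nuclei, of which 14 were in 1 Control nucleus. H2-K1 had 14 and 24 UMIs in MIP and Control nuclei, with 9 in 1 Control nucleus, and H2-D1 had 17 and 31 UMIs, with 19 in 1 Control nucleus. The log2 ratios were -0.87, -1.19 and -1.28. Border macrophage markers summed to 4 UMIs in 3 MIP nuclei and 147 UMIs in 3 Control nuclei, 145 of them in 1 nucleus. Leaving out nuclei with a UMI of the 6 genes named for microglia-like nuclei removed 2 nuclei from each library, after which 9 of 20 measured members were lower and 2 higher, beside 19% and 16% of all genes. Usp18 stayed at -2.93, Ifitm3 at -1.81 and Parp14 at -1.38, whereas B2m was at -0.21, H2-K1 at -0.49 and H2-D1 at 0.01, so the call of lower class I genes did not hold without those nuclei.

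The 2 fibroblast-like clusters did not run alike. In the larger one, led by Ptgds, Slc6a13 and collagen genes, with 75 MIP and 39 Control nuclei, 13 of 18 measured members were lower and 4 higher, beside 20.2% and 18.8% of all genes. There Oasl2 had 4 UMIs in MIP and 32 in Control nuclei, at -3.29 (-5.25 to -1.79), and Stat2 had 18 and 49 UMIs, at -1.73 (-2.60 to -0.93). In the smaller one, led by Bnc2, Adamtsl3 and Prdm6 and with 3 fibroblast markers among its 60 leading genes, with 38 MIP and 21 Control nuclei, 3 of 5 measured members were higher and 1 lower, beside 24.8% and 17% of all genes. There Oasl2 had 33 UMIs in MIP and 4 in Control nuclei, at 2.40 (0.91 to 4.36). Ddx58 had 18 and 2, at 2.53 (0.47 to 5.68), and Rnf213 had 19 and 3, at 2.02 (0.26 to 4.42). Stat2, with 18 MIP and 1 Control UMIs, was under the minimum, at 3.53 (0.87 to 8.91). The 23 interferon-induced members summed to 152 UMIs (415 CPM) in MIP and 424 UMIs (1413 CPM) in Control nuclei of the larger cluster, and to 136 UMIs (605 CPM) and 34 UMIs (236 CPM) in the smaller. In the larger cluster 57 of the 424 Control UMIs came from 1 nucleus, and 5 MIP and 18 Control nuclei had at least 5 of the members. In the smaller cluster 29 of the 136 MIP UMIs came from 1 nucleus, and 3 MIP and 0 Control nuclei had at least 5 of the members. Neither cluster was recomputed without nuclei that held UMIs of border macrophage genes. The split was made after the data were seen, and the difference between the clusters was not tested.

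**Figure D4:**
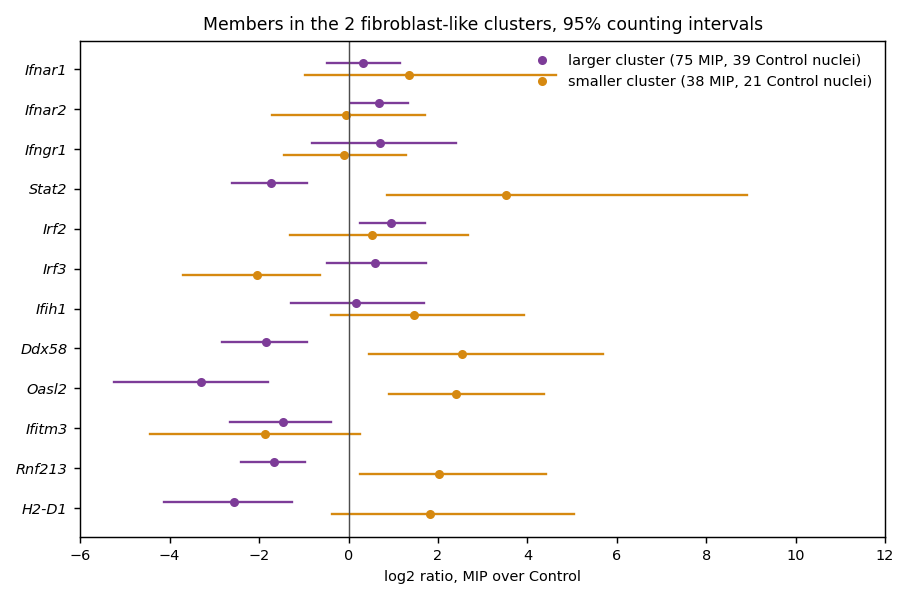
Log2 ratio of MIP over Control with exact 95% counting intervals for the 12 members with at least 10 UMIs in each of the 2 fibroblast-like clusters (purple, larger; orange, smaller). Stat2, Ddx58, Oasl2, Rnf213 and H2-D1 lie left of 0 in the larger cluster and right of 0 in the smaller, with intervals that do not meet, Irf3 lies the other way round, and the intervals of the receptor chains overlap. Most Control UMIs of H2-D1 in the larger cluster came from a single nucleus.

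Endothelial cell-like nuclei were only 13 in the MIP and 20 in the Control library and were not counted among the compared classes. H2-K1 had 3 UMIs in MIP and 37 UMIs in 12 Control nuclei, at -2.37 (-4.71 to -0.71), H2-D1 had 6 and 53, at -1.88 (-3.39 to -0.67), and B2m had 1 and 21, at -3.13 (-8.50 to -0.50). The level per class total was thus lower in the MIP library for all 3 class I chains. Border macrophage markers were lower too, with 1 UMI (16.3 CPM) in MIP nuclei and 28 UMIs (191 CPM) in 9 Control nuclei, while astroglia markers stood at 1826 CPM in MIP and 388 CPM in Control nuclei and pericyte markers at 2201 and 790 CPM. Oasl2 had 0 UMIs in MIP and 11 in Control nuclei. The Control nuclei also held 337 UMIs of erythroid markers, 322 of them in 1 nucleus, and the MIP nuclei held 1. The part of these other cell types in the difference was not tested.

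Astroglia-like nuclei, which were not split into stem cell-like and other astrocytes, numbered 1068 in the MIP and 1176 in the Control library. Of 24 measured members, 0 were higher and 7 were lower, against 4.82% of 14885 genes higher and 15.2% lower, with medians of -0.30 over the members and -0.12 over all genes. Gbp3, a guanylate-binding GTPase, had 15 UMIs in MIP and 51 in Control nuclei, at -1.10 (-2.04 to -0.25). Ddx58 had 24 and 67 UMIs, at -0.82 (-1.56 to -0.13), Irf9 had 41 and 98, at -0.59 (-1.16 to -0.05), and Xaf1 had 2 and 22, at -2.80 (-5.93 to -0.77). With TMM scaling Irf9 was at -0.48 (-1.05 to 0.06), under 1.5-fold, and 5 members were lower, beside 11.3% of all genes. Irf8, with 5 MIP and 15 Control UMIs, Ifit2 with 9 and 22, and Ifitm3 with 8 and 24 were lower with intervals that included a ratio of 1. The 4 receptor chains and the 5 measured class I genes lay within 1.5-fold, B2m with 42 UMIs in MIP and 56 in Control nuclei, at 0.25 (-0.36 to 0.85). Iigp1 was at 0 in both libraries.

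Of 16 measured in oligodendrocyte precursor-like nuclei (642 MIP and 672 Control), 0 were higher and 1 was lower, against 4.37% of genes higher and 15.4% lower. With TMM scaling, a size factor from the middle of the ratios, 1 was higher and 1 lower, beside 6.56% and 11.7% of all genes. The lower member was H2-K1, with 20 UMIs in MIP and 47 in Control nuclei, at -0.86 (-1.69 to -0.08). In cycling progenitor-like nuclei (294 MIP and 547 Control), 2 of 15 were higher and 3 lower, against 5.96% and 13.5%. Irf3, a factor that induces type I interferon, had 27 UMIs in MIP and 120 in Control nuclei, at -0.84 (-1.50 to -0.23), and was the only one of the 5 whose interval excluded a ratio of 1. The others were H2-K1 with 14 MIP and 17 Control UMIs and Tap2 with 9 and 14 on the higher side, and Irf9 with 4 and 22 and Ddx58 with 7 and 29 on the lower side. A cluster in this cycling class, with 67 MIP and 127 Control nuclei, had Pdgfra among its 10 leading genes, as had the oligodendrocyte precursor-like clusters. Over the class, oligodendrocyte precursor markers stood at 4533 CPM in MIP and 4206 CPM in Control nuclei, and its own markers at 3112 and 3385 CPM.

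In neuroblast-like nuclei (711 MIP and 1234 Control), 0 of 14 were higher and 2 lower, against 7.1% and 14.6%. Irf2 had 35 UMIs in MIP and 144 in Control nuclei, at -0.64 (-1.22 to -0.10), and Ifit2, related to Ifit1, had 8 and 35, at -0.73 (-2.05 to 0.40). Different clusters held most of this class in each library, 1 with 625 MIP and 20 Control nuclei and another with 86 and 1214, and oligodendrocyte precursor-like nuclei were split likewise, 605 and 11 against 37 and 661.

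In spiny projection neuron-like nuclei 0 of 24 measured members were higher and 6 lower, against 3.37% and 16.3% of genes. With TMM scaling 2 were higher and 2 lower, beside 5.64% and 11.2%. Ifnar1, a chain of the type I receptor, had 338 UMIs (12.9 CPM) in MIP and 797 UMIs (21.0 CPM) in Control nuclei, at -0.70 (-0.89 to -0.51). Irf8 had 30 and 107 UMIs, at -1.30 (-1.93 to -0.70), and Xaf1 had 28 and 67, at -0.72 (-1.41 to -0.06). Irgm1, Ifitm3 and Nlrc5 were lower with intervals that included a ratio of 1, with 8, 12 and 13 UMIs in MIP and 19, 27 and 30 UMIs in Control nuclei. The partner chain Ifnar2 differed less, with 537 and 870 UMIs, at -0.16 (-0.32 to -0.0018). The Ifnar1 ratio was -0.33 (-0.77 to 0.10) in thinned nuclei and -0.57 with TMM scaling, both under 1.5-fold.

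In interneuron-like nuclei (524 MIP and 494 Control) 1 of 14 members was higher and 4 lower, against 3.56% and 16.9%. B2m had 14 UMIs in MIP and 34 in Control nuclei, at -1.0 (-2.01 to -0.07), and intervals of the others (Iigp1 higher with 12 and 8 UMIs, and Irf9 with 14 and 30, Ifit2 with 13 and 30 and Ifngr1 with 19 and 35 lower) included a ratio of 1. In excitatory neuron-like nuclei (980 MIP and 735 Control) 0 of 19 were higher and 5 lower, against 4.22% and 16.9%. Irgm1 had 19 UMIs in MIP and 41 in Control nuclei, 10 of these in 1 nucleus, at -1.10 (-1.97 to -0.28), or at -0.55 (-1.23 to 0.11) among nuclei with at least 1000 genes. Ifih1 with 24 MIP and 40 Control UMIs, Ddx58 with 29 and 46, Oasl2 with 7 and 14 and Xaf1 with 14 and 22 were lower with intervals that included a ratio of 1. In each neuron class the receptor chains were measured in both libraries, and only Ifnar1 in spiny projection neuron-like nuclei and Ifngr1 in interneuron-like nuclei passed 1.5-fold.

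**Figure D5:**
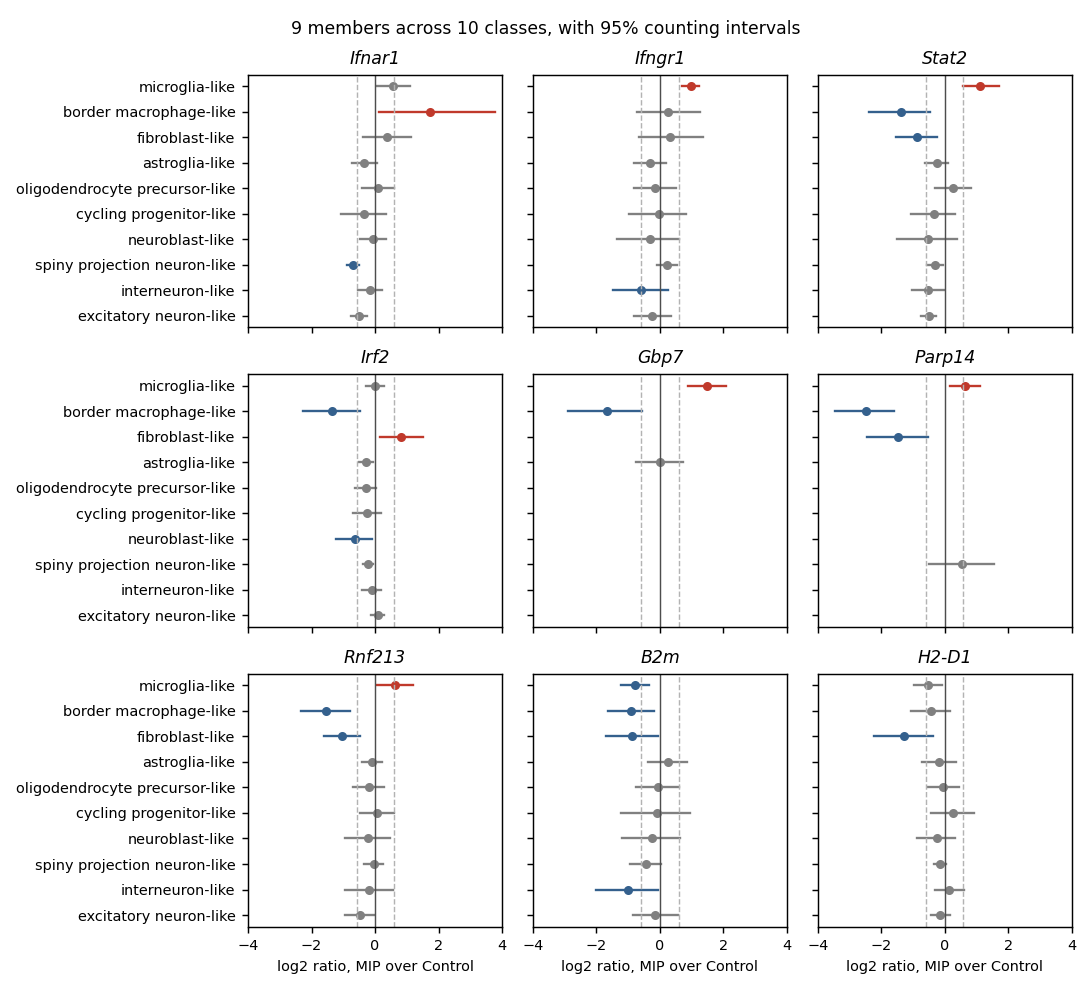
Log2 ratio of MIP over Control with exact 95% counting intervals for 9 members across 10 classes of nuclei, shown where at least 20 UMIs were counted; red is at least 1.5 times higher, blue at least 1.5 times lower, grey between. Stat2, Gbp7, Parp14 and Rnf213 lie on opposite sides of 0 in microglia-like and border macrophage-like nuclei, B2m lies below 0 in both, and most values in precursor-like and neuron-like nuclei are grey.

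Other genes of the pathway, 118 of 122 listed genes found in the files, were counted in the same way. In microglia-like nuclei 20 of 64 measured genes were higher and 8 lower, beside 12.1% and 22% of all genes. Their median was 0.26. Ifi204, an interferon-induced DNA-binding protein, had 95 UMIs in MIP and 14 in Control nuclei, at 2.82 (2.0 to 3.74), and Ifi30, a lysosomal thiol reductase of antigen processing, had 122 and 36, at 1.81 (1.27 to 2.39). Il15, a cytokine, had 40 and 72 UMIs, at -0.79 (-1.39 to -0.22), and Sp110, a nuclear body protein, had 11 and 27, at -1.24 (-2.40 to -0.18).

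In border macrophage-like nuclei 4 of 27 other genes were higher and 19 lower, beside 25.2% and 24.1% of all genes. Their median was -1.11. Ifi203, of the Ifi204 family, had 6 UMIs in MIP and 51 in Control nuclei, at -3.43 (-4.95 to -2.21), and Slfn8, of the Schlafen family, had 2 and 20, at -3.67 (-6.81 to -1.63). The kinases Tbk1, with 45 and 13 UMIs, and Jak1, with 57 and 24, were on the higher side. In fibroblast-like nuclei 6 of 35 were higher and 10 lower, beside 16.3% and 19.6% of all genes. Their median was -0.15. The GTPase Gbp6 had 9 UMIs in MIP and 27 in Control nuclei, at -2.0 (-3.27 to -0.87). Tbk1 with 69 and 24 UMIs and Jak1 with 115 and 51 were again on the higher side.

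In the other 7 classes, with 36 to 63 of these genes measured, 1 to 5 were higher and 6 to 13 lower, beside 3.37% to 7.1% of all genes higher and 13.5% to 16.9% lower. In astroglia-like nuclei the kinase Tyk2 had 54 UMIs in MIP and 171 in Control nuclei, at -1.0 (-1.47 to -0.55), and Trim34a, of the tripartite motif family, had 24 and 78. There Jak2, a kinase of the interferon gamma receptor, had 374 and 355 UMIs, at 0.74 (0.53 to 0.95), and the adaptor Traf3 had 705 and 720, at 0.63.

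In oligodendrocyte precursor-like nuclei Ifi27, with 5 UMIs in MIP and 24 in Control nuclei, and Pml, the organiser of nuclear bodies, with 13 and 37, were lower, and Jak2, at 0.42, was within 1.5-fold. In cycling progenitor-like nuclei Psme2, a proteasome activator subunit, with 20 and 21 UMIs, and Herc6 with 61 and 100 had ratios of 1.24 and 0.60. In neuroblast-like nuclei Parp12 with 17 and 18 UMIs was at 1.32 and Tyk2 with 17 and 84 at -0.90.

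Pml was also lower in spiny projection neuron-like nuclei, with 186 UMIs in MIP and 427 in Control nuclei, at -0.66 (-0.92 to -0.41), and in interneuron-like nuclei, with 10 and 38, at -1.65. In the spiny projection neuron-like class Herc6 with 37 and 103 UMIs was at -0.94, while Ifi30 with 220 and 182 was at 0.81 and Socs1, an inhibitor of Jak kinases, with 37 and 22, at 1.29. Psme1, partner of Psme2, was at -0.61 in interneuron-like nuclei. In excitatory neuron-like nuclei Tapbp, which loads peptides onto class I molecules, had 23 and 53 UMIs, at -1.19, Aim2, a DNA sensor, was at -0.65 and Traf3 at 0.60. Of the genes named for these classes by their intervals, Tbk1 and Ptpn1 in neuroblast-like, Tbk1 and Adar in interneuron-like, Ptpn1 in excitatory neuron-like and Pml and Canx in cycling progenitor-like nuclei lay within 1.5-fold.

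The interferon genes themselves were barely seen: over all kept nuclei Ifng had 1 UMI in MIP and 3 in Control nuclei, Ifna2 had 0 and 1, and Ifnb1, Ifna1 and Ifna4 had 0 in both.

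Gene positions from GENCODE M21 on the same build place several members in clusters: Gbp2, Gbp3 and Gbp7 on chromosome 3, Ifit1, Ifit2 and Ifit3 on chromosome 19, Ifnar1, Ifnar2 and Ifngr2 on chromosome 16, and H2-K1, H2-D1, Tap1, Tap2, Psmb8 and Psmb9 on chromosome 17. Of the 39 members, 13 overlap another counted gene and 2 overlap one on the same strand, Igtp with Irgm2 and Irf9 with Rnf31, and whether the counting used strand is not given in the sources used here, so their counts may include reads of the neighbour.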

How the data were processed

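Nuclei of the mouse SVZ were profiled in 1 MIP and 1 Control library. The authors deposited UMI counts per gene and nucleus, made with Cell Ranger 5.0.1 on mm10 per the submitters' processing notes, and the annotation release is not given in the sources used here. Raw counts cannot tell UMIs of a nucleus from free RNA captured with it. No step corrected for this, so low counts in a class may hold RNA of other cells.

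Nuclei with at least 500 genes and at most 5% mitochondrial UMIs were kept. Doublets were scored with Scrublet in Scanpy 1.11.5 and a share of 0.8% per 1000 barcodes was removed, 1174 from the MIP and 2271 from the Control library, since its own threshold marked 817 and 0. Counts were scaled to 10000 per nucleus and logged, and 3000 variable genes without the 39 members, the other listed pathway genes and mitochondrial, ribosomal, haemoglobin and sex-linked genes gave 40 principal components, 20 neighbours and Leiden clusters at resolution 1. A cluster was called "-like" with at least 3 markers of a type among its 60 leading genes.

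UMIs were summed per class and library and divided by the class total. Ratio intervals are exact (SciPy 1.17.1), as are the binomial ones, at 95%. Shares of nuclei were made after thinning to 2000 UMIs, which left out 77 MIP and 19 Control microglia-like nuclei. A limit of 3 UMIs stands for a count of 0. With 1 library per group no test was made, and a difference between libraries may be of animals, dissection or preparation. The ratio intervals were tried on simulated counts that held counting error only, so the trial does not cover UMIs clustered within nuclei.

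Alternatives were edgeR 4.0.16 TMM scaling, DESeq2 1.42.0 size factors, other minimums, other classes, a ratio of 2, no doublet removal and thinning. The members, gene lists and settings were chosen with earlier results of these data known. Members at 1.5-fold or more were named in each class, as were, of the other pathway genes, the 2 highest and 2 lowest by the interval end nearest to a ratio of 1. A gene that this rule names is not reported here.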

Additional observations from a re-analysis of the deposited data

Results flagged for a closer look

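Of the members, 7 had a ratio of at least 1.5 with an interval clear of 1 in opposite directions in different classes. None of these differences between classes was tested, since each class had 1 library per group. The share of all genes that pass the same rule was not counted, so the 7 cannot be read as particular to the members. All values are log2 of MIP over Control. Gbp7 was at 1.47 in microglia-like and -1.67 in border macrophage-like nuclei. Stat2 was at 1.12 in microglia-like, -1.39 in border macrophage-like and -0.89 in fibroblast-like nuclei. Parp14 was at 0.63, -2.48 and -1.46 in those 3 classes, and Rnf213 at 0.62, -1.53 and -1.04. Irf2 was at 0.82 in fibroblast-like, -1.35 in border macrophage-like and -0.64 in neuroblast-like nuclei. Irgm1 was at 1.79 in microglia-like and -1.10 in excitatory neuron-like nuclei. Ifnar1 was at 1.74 in border macrophage-like and -0.70 in spiny projection neuron-like nuclei.

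Several of these values did not hold under other settings. Irgm1 had 12 MIP and 6 Control UMIs in microglia-like nuclei, under the minimum, without nuclei with a UMI of 6 border macrophage genes, and it was at -0.55 (-1.23 to 0.11) in excitatory neuron-like nuclei with at least 1000 genes. Ifnar1 was at 1.13 (-0.13 to 2.60) in border macrophage-like nuclei named by marker scores, and in spiny projection neuron-like nuclei at -0.33 (-0.77 to 0.10) after thinning and -0.57 with TMM scaling. In border macrophage-like nuclei Irf2 was at -0.62 (-1.33 to 0.08) with marker scores and at -0.72 (-2.21 to 0.70) after thinning. Gbp7 in those nuclei was at -1.45 (-3.58 to 0.34) after thinning.

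The border macrophage-like values rest on 24 MIP and 22 Control nuclei, and the microglia-like values of Parp14 and Rnf213 were 0.38 and 0.36 without nuclei with a UMI of those 6 genes. The fibroblast-like values of Stat2 and Rnf213 each joined 2 clusters with opposite directions. In the larger and the smaller cluster Rnf213 was at -1.67 and 2.02, and Stat2 was at -1.73 and 3.53. Stat2 in the smaller cluster had 18 MIP and 1 Control UMIs, under the minimum.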

How the results depend on the processing

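No paired analysis was possible because each group has 1 library. Over 208 recomputed counts of members past 1.5-fold, 122 stayed within 1.5 times the reported count, and of 561 recomputed ratios of 72 members by class, 530 moved by less than their interval, 11 moved further and 20 changed sign. TMM scaling moved the median of all genes by 0.10 in microglia-like, 0.11 in astroglia-like and interneuron-like and 0.13 in spiny projection and excitatory neuron-like nuclei, and it took the shares of all genes higher and lower in microglia-like nuclei to 15.7% and 17.5%. Changed counts follow as higher and lower, with only the changed side given. In most lists each stands before the number of members measured and, in parentheses, the share of all genes on the same side. That share is of the same class and setting. Counts for the minimum of 60 UMIs, thinning, marker scores and the steps added after the data were seen are listed without these values. Those counts alone do not show whether the share of members changed, or how it compared with all genes. TMM: precursors 1 of 16 higher (6.56%), spiny projection neurons 2 of 24 higher (5.64%) and 2 of 24 lower (11.2%), excitatory neurons 3 of 19 lower (11.6%). DESeq2: neuroblasts 1 of 14 (8.39%) and precursors 1 of 16 (6.97%) higher, spiny projection neurons 2 of 24 higher (6.07%) and 1 of 24 lower (10.6%), excitatory neurons 2 of 19 lower (11.1%). Minimum of 1 UMI, higher: microglia 19 of 39 (18.2%), fibroblasts 5 of 38 (25.5%), astroglia 4 of 38 (14.3%), precursors 9 of 38 (12.6%), cycling progenitors 7 of 36 (14.2%), neuroblasts 7 of 37 (14.4%), spiny projection neurons 3 of 39 (8.42%), interneurons 7 of 35 (11.8%), excitatory neurons 6 of 39 (12.4%), and lower: microglia 6 of 39 (34.0%), border macrophages 31 of 39 (35.5%), fibroblasts 25 of 38 (31.8%), astroglia 14 of 38 (27.5%), precursors 10 of 38 (29.2%), cycling progenitors 17 of 36 (28.5%), neuroblasts 17 of 37 (30.7%), spiny projection neurons 14 of 39 (25.2%), interneurons 13 of 35 (29.5%), excitatory neurons 10 of 39 (26.2%). Minimum of 60 UMIs, higher: microglia 7, border macrophages 0, fibroblasts 1, cycling progenitors 0, interneurons 0, and lower: microglia 1, border macrophages 3, fibroblasts 3, astroglia 3, cycling progenitors 1, neuroblasts 1, spiny projection neurons 3, interneurons 0, excitatory neurons 3. Ratio of 2, higher: microglia 4 of 26 (4.11%), fibroblasts 0 of 21 (5.77%), cycling progenitors 1 of 15 (1.16%), interneurons 0 of 14 (0.807%), and lower: microglia 1 of 26 (8.82%), astroglia 2 of 24 (4.88%), precursors 0 of 16 (4.39%), cycling progenitors 1 of 15 (4.34%), neuroblasts 0 of 14 (5.72%), spiny projection neurons 1 of 24 (5.29%), interneurons 1 of 14 (5.63%), excitatory neurons 1 of 19 (4.83%). Thinning, higher: microglia 7, border macrophages 1, precursors 1, cycling progenitors 0, interneurons 0, excitatory neurons 1, and lower: border macrophages 5, fibroblasts 3, astroglia 3, spiny projection neurons 1, interneurons 1, excitatory neurons 0. Classes from marker scores: cycling progenitors 0, neuroblasts 1, spiny projection neurons 1 and interneurons 2 higher, precursors 2 and fibroblasts 8 lower. At least 1000 genes: cycling progenitors 1 of 14 (6.09%), neuroblasts 1 of 14 (7.30%), spiny projection neurons 1 of 21 (3.43%) and interneurons 0 of 13 (3.51%) higher, precursors 2 of 17 (16.2%) and excitatory neurons 3 of 23 (18.4%) lower. Interferon genes among the variable genes: precursors 2 of 17 (15.6%) and excitatory neurons 3 of 15 (16.2%) lower. No doublet removal: astroglia 1 of 28 (3.61%) and cycling progenitors 1 of 16 (5.49%) higher, neuroblasts 1 of 14 lower (14.6%), and border macrophage-like nuclei not separated, so not run there. Added after the data were seen: microglia without nuclei with a UMI of 6 border macrophage genes 7 higher, the larger fibroblast cluster 4 higher and the smaller 1 lower. Signs changed with thinning for Irf8 (astroglia, 0.97), Tap2 (cycling progenitors, -0.042), Xaf1 (excitatory neurons, 0.18, and microglia, -0.17), H2-D1 (fibroblasts, 0.36), Ifit2 and Iigp1 (interneurons, 0.68 and -1.06), Nlrc5 (microglia, 0.021) and Irgm1 (spiny projection neurons, 0.67). They changed with marker scores for Ifngr2 (border macrophages, 0.18), H2-K1 (cycling progenitors, -0.13) and H2-D1 (fibroblasts, 0.21), with interferon genes among the variable genes for Oasl2 (excitatory neurons, 0.32), without those nuclei for H2-D1 (fibroblasts, 0.013), and in the smaller fibroblast cluster for B2m (0.68), Ddx58 (2.53), H2-D1 (1.82), Irf9 (0.36), Rnf213 (2.02) and Stat2 (3.53). In the smaller fibroblast cluster B2m, H2-D1, Irf9 and Stat2 were under 20 UMIs. Fewer genes pass a higher minimum by construction, and for the other changes the cause was not tested.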

Other observations

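Nuclei that no marker list named, 2438 in the MIP and 2508 in the Control library, also carried members. Xaf1 had 26 UMIs in MIP and 76 in Control nuclei, a log2 ratio of -1.26 (-1.97 to -0.60), and Oasl2 had 7 and 23, at -1.43 (-2.90 to -0.17). Irf9 had 122 and 219 UMIs, at -0.56 (-0.89 to -0.23), and Ifnar1 had 434 and 724, at -0.45 (-0.63 to -0.28). In the nuclei of low depth, 708 in the MIP and 3487 in the Control library, B2m had 10 and 169 UMIs, at -1.29 (-2.37 to -0.37).

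Over all kept nuclei, Usp18 had 21 UMIs in MIP and 86 in Control nuclei, at -1.57, and Igtp, an immunity-related GTPase, had 8 and 37, at -1.75. Ifngr1 had 850 and 956 UMIs, at 0.29 (0.16 to 0.43). These sums mix classes whose shares differed between the libraries.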
